A study of Homo sapiens with 21 samples.

Results

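The genes described here are 10 human transporters chosen by gene symbol from the 60651 genes of the count table: the ATP-binding cassette (ABC) drug efflux pumps ABCB1, ABCC1, ABCC2, ABCC3, ABCC4, ABCC5 and ABCG2, and the organic anion uptake carriers SLCO1A2, SLCO1B3 and SLCO4A1. The list was selected on expression results of these same tumors, so its levels and differences are given as a description and are not independent support for a pattern. RNA was sequenced from subcutaneous xenografts of A549-Luc2 cells, a luciferase-marked form of the human lung adenocarcinoma line A549, grown in the flank of female athymic nu/nu mice that were 6 to 8 weeks old at injection. When the tumors averaged 80 to 100 mm3, the mice were divided at random into 3 groups of 10. The Oxy186 group and the Oxy210 group, named for 2 semisynthetic oxysterols, received the compound daily by oral gavage at 50 mg/kg, and the control group received the same vehicle of DMSO, ethanol, PEG400 and corn oil. Tumors r1 to r7 of each group were sequenced, 21 in all. All groups share 1 cell line and a host without T cells, and the counts are of human genes only, so transporters of the mouse stroma were not measured.

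ABC pumps use ATP to move drugs, conjugates and lipids out of the cell against a gradient. SLCO carriers, also called organic anion transporting polypeptides, take up bile salts, steroid conjugates and many drugs without using ATP. Both families affect how much of a lipophilic or conjugated compound stays in a tumor cell, and several members respond to xenobiotic sensors or to the antioxidant regulator NRF2, whose inhibitor KEAP1 carries a known loss-of-function mutation in A549.

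The 21 libraries held from 13787493 to 17865119 counts on human genes, with overlapping ranges in the 3 groups. Counts followed the GC content of exons differently from library to library. This slope, in log2 units per 10 percentage points of GC, ran from -0.15 to 0.40 in control tumors, from -0.51 to 0.49 in Oxy186 tumors and from -0.33 to 0.26 in Oxy210 tumors. Oxy186 tumors r1-r4, which the study set apart on a principal component plot and compared with the control group, had slopes from -0.51 to -0.18, below that of every control tumor. All 8 epithelial markers of the line, among them KRT8, were detected, with a summed level of 14410 to 26525 CPM, read counts scaled to a common library size. The 3 surfactant genes SFTPC, SFTPA1 and SFTPB, which mark type II alveolar cells, summed to at most 0.54 CPM. Human endothelial markers summed to 1.18 to 5.77 CPM over 4 genes, and leukocyte markers to 0.060 to 0.86 CPM over 3. The 5 fibroblast markers summed to 76.7 to 260 CPM, most of it LUM and COL1A1, and their ranges overlapped between the groups. VWF had 0 counts in every Oxy186 tumor and KDR in every Oxy210 tumor. Both were near the floor, with means over the 21 tumors of 0.0126 CPM for VWF and 0.00996 CPM for KDR. Their zeros therefore do not set the groups apart.

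The 10 transporters spanned a wide range of levels. To compare genes, TMM-scaled CPM (CPM after the trimmed-mean library scaling of edgeR) were divided by the length of the merged exons of each gene. ABCC3, a basolateral pump for bile salts and glucuronides, had the highest level at 125 ± 17.8 CPM per kb (SD, n = 21). ABCC2, the apical pump for bilirubin glucuronides and glutathione conjugates, followed at 64.1 ± 9.31. These pumps stood above 98.7% and 97.2% of 16952 expressed genes with a known exon length on this per-kb scale. SLCO1B3, a carrier of bile salts and taxanes that normally belongs to the hepatocyte, came next at 25.95 ± 6.79 CPM per kb, and ABCC1, the general multidrug resistance pump for glutathione conjugates, at 20.4 ± 4.72.

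The middle of the order was held by ABCC4 and SLCO4A1. ABCC4, an exporter of cyclic nucleotides and prostaglandins, had 8.78 ± 1.30 CPM per kb, and SLCO4A1, a widely expressed carrier of thyroid hormone and prostaglandins, had 7.22 ± 4.45. ABCC5, a further exporter of cyclic nucleotides, stood at 3.18 ± 0.72 and ABCG2, the breast cancer resistance protein that exports urate and many anticancer drugs, at 2.51 ± 0.67. SLCO1A2, a carrier of bile salts and steroid conjugates at the blood-brain barrier and in the bile duct, had 0.27 ± 0.14 CPM per kb. ABCB1, the P-glycoprotein pump that gave multidrug resistance its name, was lowest at 0.084 ± 0.072. ABCC3 exceeded ABCC2, ABCC2 exceeded SLCO1B3, ABCC1 exceeded ABCC4 and ABCG2 exceeded SLCO1A2 in 21 of 21 tumors with no overlap of their ranges. The ranges of SLCO1B3 and ABCC1 overlapped, as did those of ABCC4 and SLCO4A1, of SLCO4A1 and ABCC5, of ABCC5 and ABCG2 and of SLCO1A2 and ABCB1. Within these pairs the first gene was higher in 13, 14, 16, 13 and 21 of 21 tumors.

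**Figure D1:**
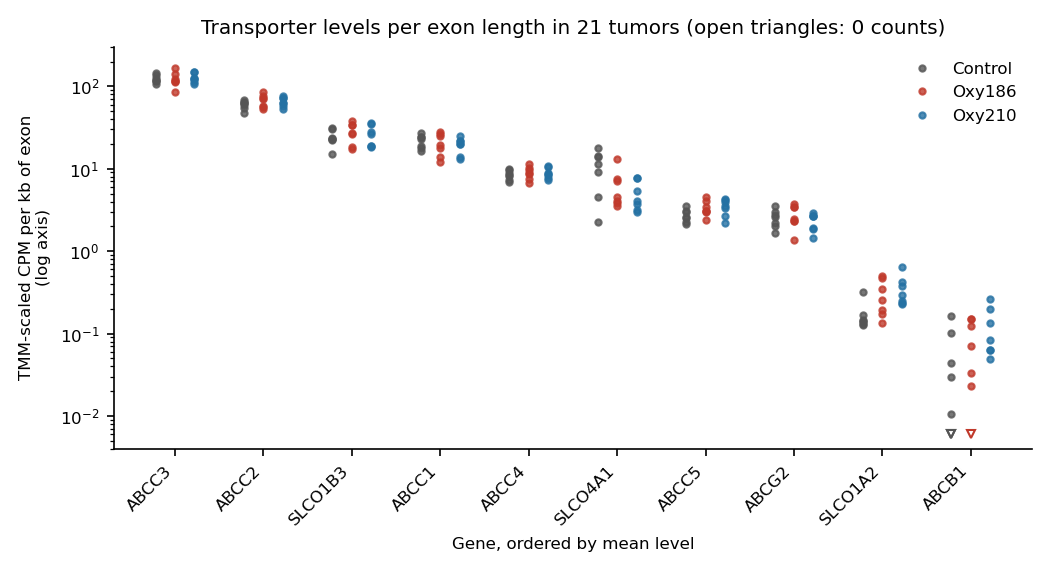
TMM-scaled CPM per kb of merged exon (log axis) for the 10 transporters, ordered by mean, with 1 point per tumor and colors for the Control, Oxy186 and Oxy210 groups of 7 tumors each. ABCC3 and ABCC2 lie highest, ABCB1 lies lowest, and open triangles mark the tumors with 0 ABCB1 counts, which have no place on a log axis.

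On the GRCh38 assembly, ABCC1 lies at chr16:15949138-16143257, ABCC2 at chr10:99782640-99852594, ABCC3 at chr17:50634777-50692253 and ABCC4 at chr13:95019835-95301475. ABCC5 lies at chr3:183919934-184017939, ABCB1 at chr7:87503017-87713323 and ABCG2 at chr4:88090150-88231628. SLCO1B3 and SLCO1A2 lie on the same arm of chromosome 12, at chr12:20810702-20916911 and chr12:21264600-21419594, and SLCO4A1 lies at chr20:62642503-62685785. Counts were summed over the exons of each gene. SLCO1B3 shares 54.5% of its exon bases with the readthrough gene SLCO1B3-SLCO1B7 on the same strand, so its counts are uncertain. The readthrough gene had 1.84 to 6.70 CPM against 53.6 to 133 CPM for SLCO1B3. It shares 96.3% of its own exon bases with other genes on its strand. Its low count therefore cannot bound the share of readthrough in the counts of SLCO1B3. SLCO4A1 shares 8.67% of its exon bases with the antisense gene SLCO4A1-AS1, and the other 8 transporters share none with another gene. Exon GC content ran from 35.1% in SLCO1B3 and 38.4% in SLCO1A2 to 55.7% in ABCC3 and 58.6% in SLCO4A1.

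Among the 9 members that passed the expression filter (ABCB1 did not), SLCO1A2 had the largest increase in both compound groups. In control tumors its level was 1.46, 1.62, 1.93, 1.60, 1.51, 1.67 and 3.66 CPM in r1 to r7, from 20 to 52 counts per library. In Oxy186 tumors it was 5.79, 2.96, 1.98, 5.49, 4.04, 2.24 and 1.54 CPM. In Oxy210 tumors it was 3.36, 2.71, 2.62, 4.34, 4.80, 7.42 and 2.83 CPM. Control tumor r7 stood well above the other 6 control tumors, which lay within 1.46 to 1.93 CPM. All 7 Oxy210 tumors and 6 of 7 Oxy186 tumors lay above the control median of 1.62 CPM, and 3 tumors of each compound group lay above every control tumor, so the ranges overlapped in both comparisons. The mean was 4.01 ± 1.72 CPM in Oxy210, 3.43 ± 1.71 in Oxy186 and 1.92 ± 0.78 in control tumors (SD, n = 7 each).

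The log2 fold change of SLCO1A2 was 1.09 (SE 0.28, 95% interval 0.50 to 1.67) for Oxy210 against control, which is 2.12-fold, with an unadjusted p of 0.0011 and an adjusted p of 0.21 in edgeR's quasi-likelihood test across all genes. With a different count model, DESeq2, the adjusted p was 0.037, and SLCO1A2 was then the only member called, where 0.134% of 16396 genes were called. For Oxy186 against control it was 0.82 (SE 0.32, interval 0.14 to 1.503), or 1.77-fold, with an unadjusted p of 0.021 and an adjusted p of 0.86 in edgeR. By size of increase SLCO1A2 ranked 10 of 16396 genes for Oxy210 and 38 of 16291 for Oxy186. These comparisons share the same 7 control tumors, including r7. Without control tumor r7 the log2 fold changes of SLCO1A2 were 1.32 for Oxy210 and 1.09 for Oxy186. These were the largest with 1 tumor left out. Over all tumors left out in turn they ran from 0.85 to 1.32 for Oxy210 and from 0.66 to 1.09 for Oxy186. With offsets for the GC trend of each library they were 0.95 and 0.72.

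RefSeq promoter windows on GRCh38.p14 were at hand for 7 of the 10 members, with 13 start sites in all. No window was at hand for ABCC1, ABCC3 and SLCO4A1. The 250 bases before each start site were searched on both strands for the antioxidant response core TGACNNNGC, for the aryl hydrocarbon receptor core GCGTG and for the hypoxia-inducible factor core ACGTG, which do not overlap in the matches shown. The windows of SLCO1A2 are shown because it had the largest increase among the 9 members that passed the filter, and those of ABCC5 and ABCC4 because ABCC5 was the other one of these 9 with a lower limit above 0 for Oxy210 and ABCC4 held the only antioxidant core. Capitals mark matches to any of the 3 cores. The windows are chr12:21403652-21403901 and chr12:21334918-21335167 for the 2 SLCO1A2 starts, chr3:184017885-184018134 for ABCC5 and chr13:95301452-95301701 for ABCC4, all on the minus strand and written 5′ to 3′.
SLCO1A2, first start: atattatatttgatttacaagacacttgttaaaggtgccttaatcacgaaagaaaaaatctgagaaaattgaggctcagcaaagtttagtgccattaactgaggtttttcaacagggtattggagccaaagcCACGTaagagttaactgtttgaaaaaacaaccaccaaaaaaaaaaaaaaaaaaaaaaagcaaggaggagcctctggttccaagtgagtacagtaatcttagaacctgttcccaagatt
SLCO1A2, second start: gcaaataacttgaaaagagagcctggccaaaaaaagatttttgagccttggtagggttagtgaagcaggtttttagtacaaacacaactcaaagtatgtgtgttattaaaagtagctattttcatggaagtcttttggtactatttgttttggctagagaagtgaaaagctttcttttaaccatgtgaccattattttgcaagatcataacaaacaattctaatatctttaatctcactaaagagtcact
ABCC5: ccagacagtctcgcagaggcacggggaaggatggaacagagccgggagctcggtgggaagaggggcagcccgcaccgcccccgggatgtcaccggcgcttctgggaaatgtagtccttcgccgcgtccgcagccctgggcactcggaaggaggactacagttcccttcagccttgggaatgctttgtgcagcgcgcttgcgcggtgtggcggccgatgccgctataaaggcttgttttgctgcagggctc
ABCC4: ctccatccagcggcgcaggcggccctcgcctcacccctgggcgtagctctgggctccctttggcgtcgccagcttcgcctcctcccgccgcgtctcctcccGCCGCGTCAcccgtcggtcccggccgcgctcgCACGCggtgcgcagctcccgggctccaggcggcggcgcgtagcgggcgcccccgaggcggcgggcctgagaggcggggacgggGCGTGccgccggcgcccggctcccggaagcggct
The first SLCO1A2 window held 1 hypoxia-inducible factor core, whose first base lies 118 bases before the start, and no match to the other cores. The second SLCO1A2 window and the ABCC5 window held no match. The ABCC4 window held the antioxidant core 149 bases before its start and 2 aryl hydrocarbon receptor cores. The 13 windows held the antioxidant core in 1, the aryl hydrocarbon receptor core in 5 and the hypoxia-inducible factor core in 3, where 10.9%, 32.2% and 18.5% of 35116 RefSeq windows of the same length held them. Some of the ABCG2 windows overlap, so that the same matches are counted more than once in the 5 and the 3. A match is a run of letters and not a shown binding site.

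SLCO4A1 was the member with the largest decrease in both compound groups. In control tumors its level was 56.0, 56.2, 45.9, 36.1, 70.5, 8.98 and 18.2 CPM in r1 to r7. In Oxy186 tumors it was 13.9, 15.4, 16.1, 18.3, 28.0, 52.7 and 30.0 CPM. In Oxy210 tumors it was 11.8, 12.6, 14.7, 21.3, 30.9, 16.2 and 31.1 CPM. Control tumors r6 and r7 lay far under the other 5 control tumors, and r6 was the lowest of all 21 tumors. All 7 Oxy210 tumors and 6 of 7 Oxy186 tumors lay below the control median of 45.9 CPM, yet none lay below every control tumor. The mean was 41.7 ± 22.0 CPM in control, 24.9 ± 13.8 in Oxy186 and 19.8 ± 8.25 in Oxy210 tumors (SD, n = 7 each).

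The log2 fold change of SLCO4A1 for Oxy210 against control was -1.04 (SE 0.35, 95% interval -1.78 to -0.30), or 2.06-fold lower, with an unadjusted p of 0.0082 and an adjusted p of 0.27 in edgeR across all genes. For Oxy186 against control it was -0.76 (SE 0.38, interval -1.57 to 0.047), with an unadjusted p of 0.063 and an adjusted p of 0.86 in edgeR. By size of decrease it ranked 64 of 16396 genes for Oxy210 and 207 of 16291 for Oxy186. With offsets for the GC trend of each library the log2 fold changes moved to -0.77 (interval -1.55 to 0.007) and -0.54 (interval -1.17 to 0.087). SLCO4A1-AS1, the antisense gene whose reads in the stretch of shared exon bases cannot be told apart from those of SLCO4A1 without strand, was at 1.34 to 12.5 CPM in control, 3.14 to 9.72 in Oxy186 and 2.22 to 9.66 in Oxy210 tumors. Among genes whose mean log2 CPM was 1 or more, it was the one whose log2 CPM was most like that of SLCO4A1 over the 21 tumors (Pearson's r = 0.90, Spearman's rho = 0.91). Whether strand entered the counting is not given in the sources used here.

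**Figure D2:**
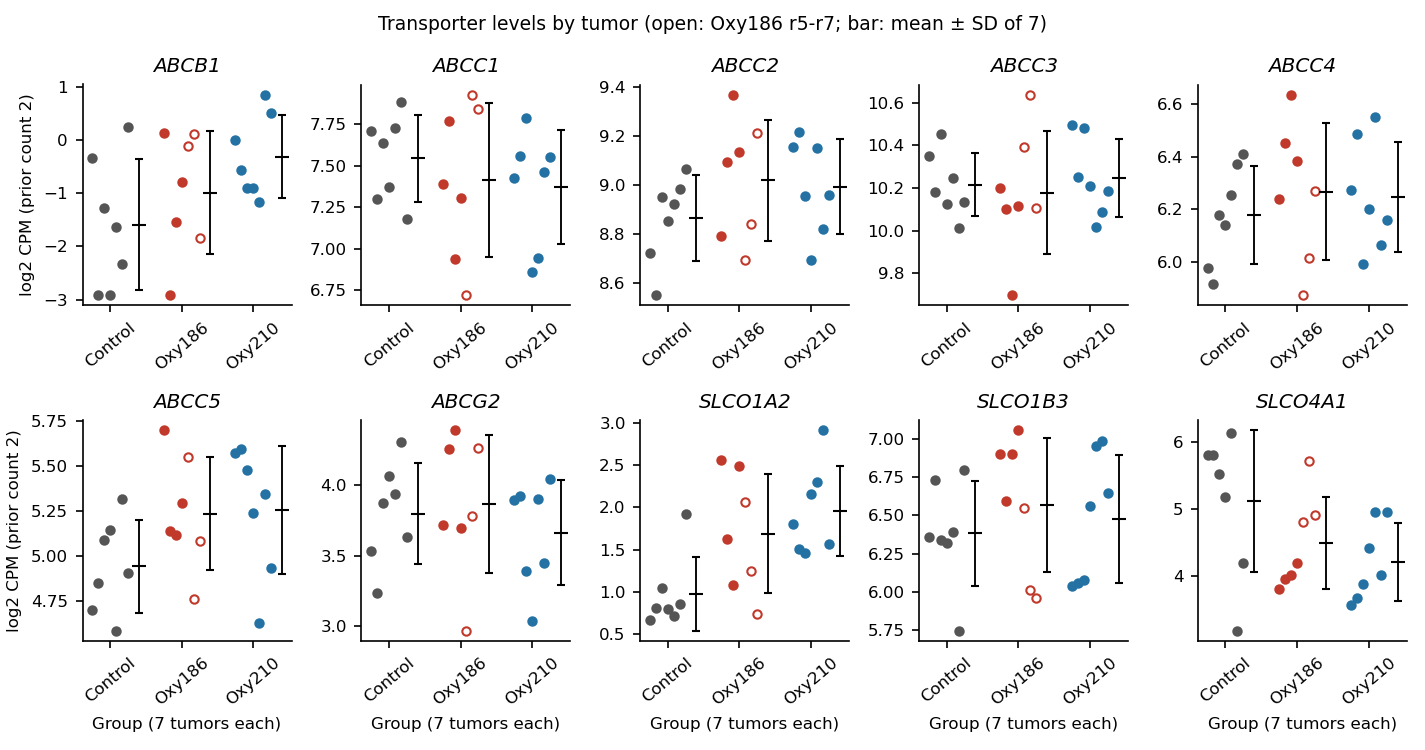
Log2 CPM (prior count 2) of each transporter in the 7 tumors of the Control, Oxy186 and Oxy210 groups, with 1 point per tumor, open points for Oxy186 r5-r7, and a black bar for the mean ± SD of the 7 tumors. SLCO1A2 lies higher and SLCO4A1 lower in most tumors of both compound groups, but the ranges of the groups overlap in every panel.

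The remaining uptake carrier, SLCO1B3, was little different. Its level ran from 53.6 through a median of 81.8 to 111 CPM in control, from 62.1 through 96.5 to 133 in Oxy186 and from 65.7 through 94.3 to 126 in Oxy210 tumors. The log2 fold change was 0.18 (SE 0.19) for Oxy186 and 0.14 (SE 0.19) for Oxy210, each with an interval that held 0. The Oxy186 tumors were unequal, with 119, 96.5, 120 and 133 CPM in r1-r4 and 93.7, 64.5 and 62.1 CPM in r5, r6 and r7.

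Among the 6 pumps that passed the expression filter, ABCC5 had the largest difference. Its level ran from 23.9 through a median of 29.9 to 39.8 CPM in control, from 27.0 through 35.1 to 51.8 in Oxy186 and from 24.7 through 40.5 to 48.1 in Oxy210 tumors. In each compound group 6 of 7 tumors lay above the control median, and 4 Oxy210 tumors and 2 Oxy186 tumors lay above every control tumor. The log2 fold change was 0.34 (SE 0.15, 95% interval 0.039 to 0.65) for Oxy210, with an unadjusted p of 0.029 and an adjusted p of 0.32 in edgeR. For Oxy186 it was 0.29 (SE 0.16, interval -0.045 to 0.62), with an adjusted p of 0.86.

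The other 4 pumps of the ABCC family, ABCC1, ABCC2, ABCC3 and ABCC4, had small log2 fold changes. ABCC1 ran from 144 through a median of 198 to 236 CPM in control, from 105 through 168 to 243 in Oxy186 and from 116 through 176 to 221 in Oxy210 tumors. ABCC2 ran from 375 through 486 to 536 CPM in control, from 414 through 546 to 662 in Oxy186 and from 414 through 498 to 596 in Oxy210 tumors. For ABCC2, 4 Oxy186 tumors and 3 Oxy210 tumors lay above every control tumor, and 0 lay below every control tumor. ABCC3 ran from 1033 through 1163 to 1400 CPM in control, from 830 through 1108 to 1593 in Oxy186 and from 1036 through 1185 to 1444 in Oxy210 tumors. Each of these genes had overlapping ranges in the 3 groups. ABCC4 ran from 60.3 through 72.4 to 84.9 CPM in control, from 58.6 through 77.0 to 99.2 in Oxy186 and from 63.6 through 73.6 to 93.6 in Oxy210 tumors. The log2 fold changes of these pumps lay between -0.10 (ABCC1) and 0.14 (ABCC2) for Oxy186 and between -0.14 (ABCC1) and 0.15 (ABCC2) for Oxy210. All 8 intervals held 0. For ABCC3 the interval was -0.15 to 0.26 for Oxy210 and for ABCC2 it was -0.08 to 0.38.

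ABCG2 ran from 9.26 through a median of 14.5 to 19.6 CPM in control, from 7.67 through 13.6 to 20.9 in Oxy186 and from 8.07 through 14.8 to 16.3 in Oxy210 tumors. Its log2 fold changes were 0.08 (SE 0.21) for Oxy186 and -0.11 (SE 0.18) for Oxy210. ABCB1 had too few counts to pass the expression filter and was not tested in the comparisons. It had 9, 0, 5, 0, 3, 1 and 15 counts in control tumors r1 to r7, 16, 0, 3, 7, 12, 14 and 2 in Oxy186 and 13, 8, 6, 6, 5, 27 and 21 in Oxy210 tumors. A count of 0 allowed a level of up to 0.21, 0.18 and 0.20 CPM (by library total) in control r2, control r4 and Oxy186 r2, taking 3 counts as the limit for counting error only. All 7 Oxy210 tumors lay above the control median of 0.19 CPM, and the ranges overlapped. Fitted without the filter, ABCB1 had a log2 fold change of 1.31 (SE 0.56) for Oxy210 against control with an adjusted p of 0.39 in edgeR, and 0.63 (SE 0.70) for Oxy186 with an adjusted p of 0.77.

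Over the list, 9 members were tested, and 0 were called for Oxy186 or for Oxy210 against control, a call being a change of over 2-fold with an adjusted p of 0.05 or less. The background was the same, with 0% of 16291 genes called for Oxy186 and 0% of 16396 for Oxy210 in edgeR. At an unadjusted p under 0.05, 1 member (SLCO1A2) stood out for Oxy186, where 3.79% of genes did, and 3 members (SLCO1A2, SLCO4A1 and ABCC5) for Oxy210, where 13.8% did. The median log2 fold change of the 9 members was 0.08 for Oxy186 and 0.09 for Oxy210, against -0.0067 and 0.0086 over all genes tested. Levels were scaled to counts on human genes, so the share of mouse cells in a tumor does not enter them directly. Bulk RNA cannot tell a change in every tumor cell from a change in some of them.

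The compounds were given at the same dose and schedule, so their tumors can be compared directly. Of 9 members compared between Oxy186 and Oxy210, 0 were called, as were 0% of 16361 genes in edgeR, and 664 genes had an unadjusted p under 0.05, none of them a member. The largest differences were for SLCO4A1, with a log2 fold change of Oxy186 over Oxy210 of 0.31 (95% interval -0.35 to 0.97), for SLCO1A2 with -0.23 (-0.91 to 0.45) and for ABCG2 with 0.22 (-0.23 to 0.68). The narrowest intervals were -0.25 to 0.29 for ABCC2, -0.35 to 0.22 for ABCC3 and -0.27 to 0.30 for ABCC4. The interval was -0.34 to 0.47 for ABCC1, -0.38 to 0.32 for ABCC5 and -0.36 to 0.52 for SLCO1B3. For SLCO1A2 and SLCO4A1 the intervals thus reached nearly 1 log2 unit, and for the other 7 members they ended at 0.68 or less. All adjusted p-values of members rounded to 1.00 in edgeR.

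**Figure D3:**
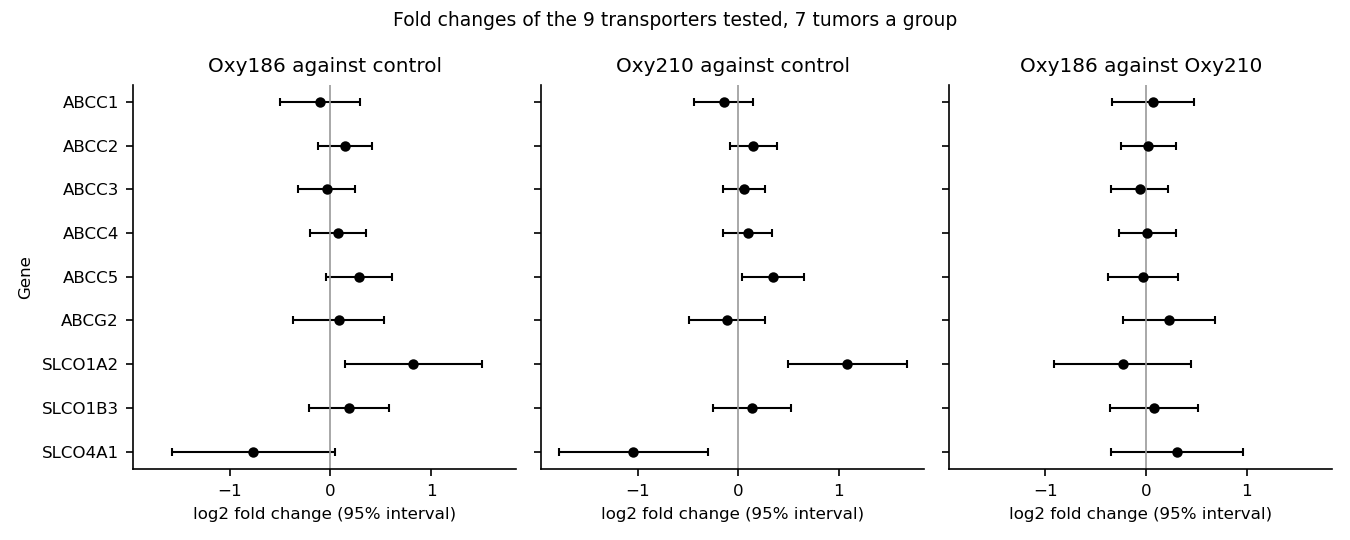
Log2 fold changes (horizontal axis) of the 9 transporters tested, with 95% intervals from edgeR's fit, for Oxy186 against control, Oxy210 against control and Oxy186 against Oxy210, with 7 tumors a group. SLCO1A2 lies to the right of 0 and SLCO4A1 to the left in both comparisons with control, and every interval of the direct comparison holds 0.

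The study's own comparison set Oxy186 tumors r1-r4 against the 7 control tumors. Since these 4 tumors were picked on their expression, the comparison describes them and is no test of the compound. SLCO4A1 lay between 13.9 and 18.3 CPM in r1-r4, with a mean of 15.9 ± 1.82 (SD, n = 4), and its log2 fold change was -1.39 (SE 0.41, 95% interval -2.26 to -0.52) with an adjusted p of 0.027 in edgeR. SLCO1A2 had a log2 fold change of 1.08 (SE 0.33, interval 0.38 to 1.77) with an adjusted p of 0.031 in edgeR. These 2 of 9 members were called, where 8.34% of 16852 genes were called, 0.214% as higher and 8.13% as lower. SLCO1B3 followed with 0.45 (SE 0.17, adjusted p = 0.068 in edgeR) and ABCC5 with 0.37 (SE 0.16, adjusted p = 0.11 in edgeR). In r5, r6 and r7 SLCO4A1 was at 28.0, 52.7 and 30.0 CPM and SLCO1A2 at 4.04, 2.24 and 1.54 CPM, so these tumors stood on both sides of the control medians.

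In r1-r4 the sign of the difference went with exon GC content. The 3 members with an exon GC content over 50% (ABCC1, ABCC3 and SLCO4A1) had log2 fold changes below 0, and the 6 tested members under 50% had log2 fold changes above 0. With GC offsets neither SLCO4A1 nor SLCO1A2 was called: their log2 fold changes were -0.74 (SE 0.38, adjusted p = 0.31 in edgeR) and 0.84 (SE 0.31, adjusted p = 0.14 in edgeR), where 1.2% of genes were called, 58 as higher and 144 as lower instead of 36 and 1370. ABCC1 moved from -0.19 to 0.05 and ABCC3 from -0.19 to 0.20. SLCO1B3 moved from 0.45 to 0.17 and ABCC4 from 0.24 to 0.04, while ABCC5 kept 0.32. The calls also rested on single tumors. Without control r1, Oxy186 r1 or Oxy186 r4 neither gene was called, while the log2 fold changes were -1.31, -1.33 and -1.42 for SLCO4A1 and 1.02, 0.86 and 0.94 for SLCO1A2. Over all tumors left out in turn they ran from -1.57 to -1.22 and from 0.86 to 1.31, and the adjusted p in edgeR ran from 0.0066 to 0.10 for SLCO1A2 and from 0.0022 to 0.071 for SLCO4A1 when 1 tumor was left out.

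**Figure D4:**
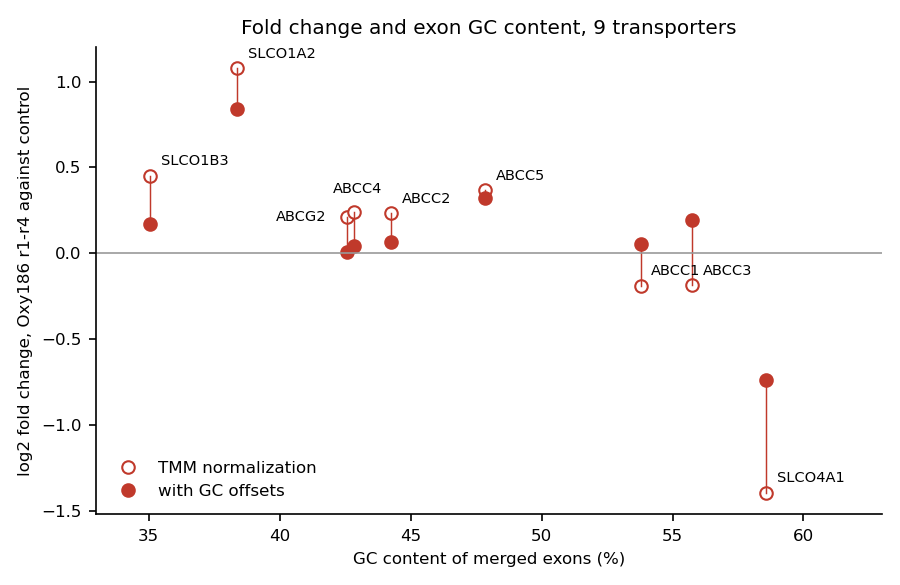
Log2 fold change of Oxy186 r1-r4 against control (vertical axis) and GC content of the merged exons in percent (horizontal axis) for the 9 transporters tested, with open points for TMM normalization and filled points with GC offsets, joined by a line for each gene. The members under 50% GC lie above 0 and those over 50% below 0 before the offsets, and SLCO4A1 moves from -1.39 to -0.74.

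Some members varied together over the 21 tumors. Log2 CPM of ABCC2 and ABCC4 had an r of 0.83, and those of ABCC2 and ABCG2 an r of 0.73. ABCC5 and SLCO4A1 went in opposite directions, with an r of -0.76. After removal of the GC trend of each library these values were 0.82, 0.72 and -0.78. SLCO1A2 and ABCC3 had an r of -0.06 before and 0.78 after that removal. The tumors share a line and fall into 3 groups, so these are descriptions.

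Among 13608 genes whose mean log2 CPM was 1 or more, the gene most like each member by Pearson's r over the 21 tumors was EIF4G1 for ABCC1 (0.93), HMGCS1 for ABCC2 (0.88), RAB11FIP3 for ABCC3 (0.93) and PHTF2 for ABCC4 (0.93). It was ADCY1 for ABCC5 (0.89), GCLM for ABCG2 (0.87), KANSL1L for SLCO1A2 (0.89), TRIQK for SLCO1B3 (0.92) and HOXB-AS1 for ABCB1 (0.73). HMGCS1 is an enzyme of cholesterol synthesis and GCLM the modifier subunit of the first enzyme of glutathione synthesis. With the GC trend removed, PHTF2 stayed nearest to ABCC4 (0.88) and GCLM to ABCG2 (0.89), and the nearest gene of SLCO4A1 was PDK1, the pyruvate dehydrogenase kinase (0.91). For each of the other 7 members the nearest gene was then another one.

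Other transporters of the same families gave no calls in the comparisons of whole groups. Of 37 other ABC genes, 24 were tested for Oxy186 and 25 for Oxy210, and 0 were called in either. Their median log2 fold changes were -0.13 and -0.02. The smallest p belonged in both to CFTR, the chloride channel of the ABC family, with log2 fold changes of 0.73 (SE 0.25, adjusted p = 0.86 in edgeR) for Oxy186 and 0.54 (SE 0.17, adjusted p = 0.27 in edgeR) for Oxy210. The sterol exporters ABCA1 and ABCG1 had -0.09 (SE 0.35) and -0.12 (SE 0.23) for Oxy186 and 0.51 (SE 0.48) and -0.08 (SE 0.23) for Oxy210. In r1-r4 against control 1 of 25 rose (CFTR, 1.00) and 5 fell, and among the latter ABCB9, ABCA2, ABCA7 and ABCB8 fell by 1.04 to 1.27 on the log2 scale. Over all genes 0.214% were called higher and 8.13% lower in that comparison. Without the fold limit, 9 of the 25 had an adjusted p in edgeR of 0.05 or less. At that looser limit 797 of all 16852 genes were higher and 2526 lower. With GC offsets 0 of the 25 were called, where 1.2% of all genes were.

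Of 9 other SLCO genes, 7 were tested and 0 were called in any comparison, and their median log2 fold change was 0.30 for Oxy186 and 0.32 for Oxy210. SLCO1B1, the liver carrier of statins and bilirubin, had the smallest p for Oxy210 (0.50, SE 0.18, adjusted p = 0.29 in edgeR) and SLCO1C1, a thyroid hormone carrier, for Oxy186 (0.49, SE 0.25, adjusted p = 0.86 in edgeR). Of 21 other carriers of drugs and bile acids, 14 were tested and 0 were called for Oxy186 or Oxy210. SLC22A18 had the smallest p in both, with -0.60 (SE 0.27) and -0.39 (SE 0.22). In r1-r4 it and SLC19A1, the reduced folate carrier, were called, having fallen by 1.20 and 1.19 on the log2 scale. In that comparison 8.13% of all genes were called lower. With GC offsets neither was called, where 1.2% of all genes were. Between the compounds, the smallest p values of these 3 lists were for ABCC10 (-0.49, SE 0.27), SLCO3A1 (0.26, SE 0.16) and SLC51B (0.47, SE 0.18), and 0 genes were called.

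The regulators and enzymes around the pumps gave no calls in the comparisons of whole groups. Of 20 sensing regulators found, 17 were tested and 0 called for Oxy186 or Oxy210. NFE2L2, which encodes NRF2, had 0.23 (SE 0.19) for Oxy186 and 0.12 (SE 0.13) for Oxy210, and KEAP1 had -0.28 (SE 0.24) and -0.40 (SE 0.19). With GC offsets KEAP1 turned to 0.23 (SE 0.18) for Oxy186 and moved to -0.15 (SE 0.11) for Oxy210, and in r1-r4 it turned from -0.60 (adjusted p = 0.046 in edgeR) to 0.46 (adjusted p = 0.062 in edgeR). NR1I2, the pregnane X receptor that induces ABCB1, had at most 0.42 CPM in any tumor and was not tested. The smallest p was that of NR1H2, an oxysterol receptor, for Oxy186 (-0.51, SE 0.27) and that of ARNT, the partner of the aryl hydrocarbon receptor, for Oxy210 (0.26, SE 0.10). In r1-r4 5 of 18 regulators had an adjusted p in edgeR of 0.05 or less. Over all 16852 genes, 797 higher and 2526 lower ones did. Of the 5 regulators NR1H2 was called, having fallen by 1.17, where 8.13% of all genes were called lower. It was not called with GC offsets.

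Of 25 enzymes of glutathione and conjugation, 24 were tested and 0 were called for Oxy186, for Oxy210 or between them. UGT1A6, a glucuronosyltransferase for planar phenols whose counts are uncertain because the genes of the UGT1A cluster share their last exons, had the smallest p for Oxy186 (1.03, SE 0.37, adjusted p = 0.86 in edgeR) and between Oxy186 and Oxy210 (1.23, SE 0.37, adjusted p = 1.00 in edgeR). Its level was 0.53 to 2.19 CPM in Oxy186, 0.20 to 0.95 in Oxy210 and 0.22 to 1.25 in control tumors. GSTO1 had the smallest p for Oxy210 (-0.36, SE 0.12). In r1-r4 6 of 24 enzymes had an adjusted p in edgeR of 0.05 or less. Over all 16852 genes, 797 higher and 2526 lower ones did. Of the 6 enzymes UGT1A6 was called, having risen by 1.29, where 0.214% of all genes were called higher. It was not called with GC offsets. All 12 NRF2 targets were tested, 0 were called in the comparisons of whole groups, and GCLC, the catalytic subunit of glutathione synthesis, had the smallest p in each, with 0.31 (SE 0.15) for Oxy186, 0.15 (SE 0.10) for Oxy210 and 0.19 (SE 0.14) between them. In r1-r4 8 of 12 targets lay above 0, with a median log2 fold change of 0.15, where 49.5% of all genes lay below 0. At an unadjusted p under 0.05 in edgeR 3 were higher and 2 lower, where 34.7% of all genes passed in either direction. The 2 called targets were both lower: SRXN1, which repairs oxidized peroxiredoxins, fell by 3.52 and OSGIN1 by 1.12 on the log2 scale. Of all genes, 0.214% were called higher and 8.13% lower in that comparison. With GC offsets SRXN1 was still called, at -3.38, where 1.2% of all genes were called. SRXN1 was at 0.24 to 0.99 CPM in r1-r4, 7.34 to 18.02 CPM in r5-r7 and 3.38 to 10.1 CPM in control tumors, so r1-r4 lay below and r5-r7 within or above the control range. GCLC was at 158 to 201 CPM in r1-r4, 106 to 130 CPM in r5-r7 and 103 to 143 CPM in control tumors.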

How the data were processed

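Per the labels and the study's methods, the authors trimmed reads with Trimmomatic 0.39, aligned them with STAR 2.7.6a to a combined human and mouse genome (GRCh38.p13 and GRCm39) and counted uniquely mapped reads on human genes with featureCounts of Subread 2.0.1. The deposited raw counts per gene were used. The authors also deposited log2 CPM values for control and Oxy186 r1-r4 tumors after filterByExpr and TMM normalization. Log2 CPM recomputed here differed from these by at most 4.97e-14 over 16852 genes.

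Members and gene lists were chosen with earlier results of these data known. Counts were fitted over all genes that passed filterByExpr with edgeR 4.0.16 (R 4.3.3, TMM, quasi-likelihood test, Benjamini-Hochberg adjustment). The fit was tried on counts simulated without a GC trend, which cannot show how it performs with the GC trends of these libraries. The study used limma voom. A gene was called when it changed over 2-fold with an adjusted p of 0.05 or less. Each group had 7 libraries, which the labels do not tie to single mice, so p-values measure the spread between these libraries. The least different pair of tumors in a group had a chi-square per degree of freedom of 11.8, so no pair was taken for copies of 1 library. Positions, exon lengths and GC content came from GENCODE 44 on GRCh38. GC trends were splines with 4 degrees of freedom per library over genes whose mean log2 CPM was 1 or more, with a GC value for 99.8% of genes, and entered as offsets in an alternative. Other alternatives were limma 3.58.1 voom, DESeq2 1.42.0, leaving out each tumor, RLE or library size in place of TMM, a common fit of the 21 libraries, no filter or a minimum of 10 counts per library, length offsets beside those for GC, a block for replicate number (also with GC offsets) and a call on the adjusted p without the fold. Per-length levels were also computed with the longest transcript and with library totals. The text names all 10 members, for each the gene with the highest r, and per list the called genes or, where none, the gene with the smallest p, with ABCA1, ABCG1, NFE2L2, KEAP1 and NR1I2. Some genes that this rule names are not reported here. Correlations between members and the promoter windows shown were chosen after their values were seen. Figures were drawn with matplotlib 3.10.9 in python 3.11.15.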

Additional observations from a re-analysis of the deposited data

Results flagged for a closer look

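In the 30 groups of 7 tumors examined (10 members in 3 groups), 1 tumor stood apart from its group by a gap past Dixon's 95% limit for 7 values. It was control tumor r7 for SLCO1A2, at a log2 CPM of 1.92, with a gap to the next control tumor of 0.70 of the range. Chance places a tumor apart in about 1 of 20 groups, or 1.5 of 30.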

How the results depend on the processing

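Of the called members, the count for Oxy186 r1-r4 against control fell from 2 to 1 with limma voom (SLCO1A2) and with a replicate block (SLCO4A1), to 0 with GC offsets, with GC and length offsets and with a replicate block and GC offsets, and ran from 0 to 2 when 1 tumor was left out. For Oxy210 against control the count was 1 with DESeq2 (SLCO1A2) and 0 otherwise. It stayed at 0 for Oxy186 against control and between the compounds in every alternative. Counts over all genes moved as well. In r1-r4, GC and length offsets gave 59 higher and 141 lower, the replicate block with GC offsets 11 and 51, and the adjusted p alone 797 and 2526. For Oxy210, DESeq2 called 3 higher and 19 lower, no filter 7 lower and the replicate block 1 lower. The labels do not say whether replicate numbers pair the tumors. Deviations of tumors with the same number had correlations from -0.40 to 0.33. These were taken without removal of the GC trends, so they cannot decide whether tumors were paired. The block is given here only for completeness.

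SLCO1A2 kept a positive and SLCO4A1 a negative log2 fold change against control in every alternative, with 0.66 to 1.09 and -1.03 to -0.40 for Oxy186 and 0.85 to 1.32 and -1.22 to -0.74 for Oxy210. The sign turned for the values that follow, and the cause was not tested. For Oxy186 against control, GC offsets turned ABCC3 to 0.14. GC and length offsets turned ABCC1 to 0.017 and ABCC3 to 0.15. The replicate block with GC offsets turned ABCC3 to 0.14, ABCC4 to -0.0018 and ABCG2 to -0.019, and library size alone turned ABCC3 to 0.0041. For Oxy210 against control, ABCC4 turned to -0.023 with GC and length offsets, and SLCO1B3 to -0.039 with GC offsets and -0.031 with the block added. Between the compounds, ABCC2 turned to -0.031 with library size alone, -0.0042 with GC offsets and -0.0039 with the block added. ABCC3 turned to 0.037 and ABCC5 to 0.0017 with GC and length offsets. ABCC4 turned to -0.038 with library size alone, -0.0024 with at least 10 counts in every library, -0.0059 with GC offsets and -0.0033 with the block added. For r1-r4, ABCC1 turned to 0.054 with GC offsets, 0.077 with length added and 0.17 with the block added, and ABCC3 to 0.20, 0.21 and 0.23.

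With 1 tumor left out, Oxy186 against control ran from -0.18 to 0.012 for ABCC1 and from -0.094 to 0.040 for ABCC3. Between the compounds it ran from -0.024 to 0.17 for ABCC1, from -0.024 to 0.083 for ABCC2, from -0.15 to 0.020 for ABCC3, from -0.034 to 0.084 for ABCC4, from -0.15 to 0.038 for ABCC5, from -0.44 to 0.0021 for SLCO1A2 and from -0.015 to 0.19 for SLCO1B3. The order of per-length levels was the same with the longest transcript, which raised ABCC3 to 211 CPM per kb, and with library totals. Depth limits ABCB1, with at most 27 counts, and SLCO1A2, with 20 to 119.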
